A study of Mus musculus with 8 samples.

Results

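Inpp4b encodes inositol polyphosphate 4-phosphatase type II, and 508 of the 8492 cytosines in a deposited list of RNA methylation sites from Tet2-deficient mast cells lie inside its gene span. The span runs from 81342266 to 82134312 on chromosome 8 of mouse build GRCm38, a length of 792047 bases. The sites were chosen by their measured levels: the authors' table holds sites that they called specific to the Tet2-deficient group, and Inpp4b was taken up here for its many listed sites. The cells were bone marrow derived mast cells of C57BL/6 mice, grown with IL-3 and SCF and positive for FcεRI and c-Kit per the labels. The genotypes in the labels are wild type and Tet2-/-, with 2 biological replicates each and 2 technical replicates of every biological one. Only the 4 Tet2-/- libraries have columns in the table analysed here, so no value below compares genotypes.

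The phosphatase removes a phosphate from the inositol ring of lipids that are made downstream of phosphoinositide 3-kinase, and it thereby lowers the membrane signal that recruits AKT. Mast cells use phosphoinositide 3-kinase downstream of both KIT, the receptor for SCF, and the IgE receptor FcεRI. Tet2 is an enzyme that oxidises 5-methylcytosine. RNA bisulfite sequencing converts unmodified cytosine, and a level here is the percentage of a position's reads in which cytosine remained. Cytosine left unconverted counts in that share as well, and no conversion rate was analysed here.

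Values of the 4 libraries are always given in one order, technical replicates 1 and 2 of biological replicate 1 and then those of biological replicate 2. Means are over biological replicates after averaging technical ones, with the SD over 2 biological replicates. The labels do not say whether the biological replicates came from separate animals. The table gives no read numbers, so the exact depth behind a level is unknown and no interval for counting error can be given. Many levels are simple fractions that small read numbers can give, such as 50%, 33.3% and 100% at the site 81959172. A level of 100% may therefore rest on few reads. It holds no expression values either, so the cell type could not be checked against its markers. Of 10 mast cell markers, Cpa3 and Il1rl1 had listed sites, and none of the 10 markers of B cells, neutrophils and macrophages did, which says nothing about their expression. Of all 21900 protein-coding genes only 96 (0.438%) held a listed site, so its absence from a marker is the usual case.

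The mean level over all 508 Inpp4b sites was 51.7% ± 0.844 (SD, n = 2). The libraries stood at 52.5%, 52.2%, 48.5% and 53.8%. The lowest was technical replicate 1 of biological replicate 2, and the values of replicate 2 enclosed both values of replicate 1. The other 7984 sites of the table had the same mean, 51.7% ± 0.218 (SD, n = 2). Single Inpp4b sites nevertheless covered most of the possible range, from 13.7% to 100%, and the middle of the distribution lay between 36.6% and 62.4%. A level of at least 50% in all 4 libraries was found at 129 sites (25.4%), against 2725 (34.1%) of the other sites. A level under 20% in every library was found at 6 sites (1.18%), against 202 (2.53%) of the other sites.

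The sites were scattered along the gene in short stretches. Joining sites up to 500 bases apart gave 20 stretches, numbered here from the start of the gene, which is on the plus strand. Together they covered 6787 bases, or 0.857% of the span. The first listed site, at 81556528, lay 214262 bases inside the span, and the last, at 82083357, lay 50955 bases before its end. The promoter window of RefSeq, from 81342312 to 81342611, held 0 listed sites. Exons and introns were not analysed here, so the position of the stretches relative to the mature mRNA is not given. The bases at the sites and their strand were not analysed either. Sites are named for Inpp4b by their position inside its span, and whether each belongs to its transcript is not known here.

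Gaps of over 50 kb divided the stretches into 4 groups. Stretches 1 to 3, with 14 sites between 214 and 224 kb from the gene start, had a mean level of 32.5% ± 0.421. The libraries of this group read 26.1%, 38.3%, 33.8% and 31.7%, so its small SD does not show a small error. Its mean joins stretch 1 at 58.8% with stretch 2 at 17.4%. Stretches 4 to 11, with 245 sites between 308 and 391 kb, stood at 55.7% ± 1.23. Stretches 12 to 15, with 84 sites between 572 and 617 kb, stood at 57.8% ± 4.78, and stretches 16 to 20, with 165 sites between 678 and 741 kb, at 44.4% ± 2.03 (SD, n = 2 for each). The middle groups differed by less than the larger of their SDs. A group mean need not describe its single stretches, since stretch 12 at 94.5% and stretch 13 at 25.7% fell in one group. The widest gap between neighbouring stretches, 180665 bases, lay between stretches 11 and 12.

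**Figure D1:**
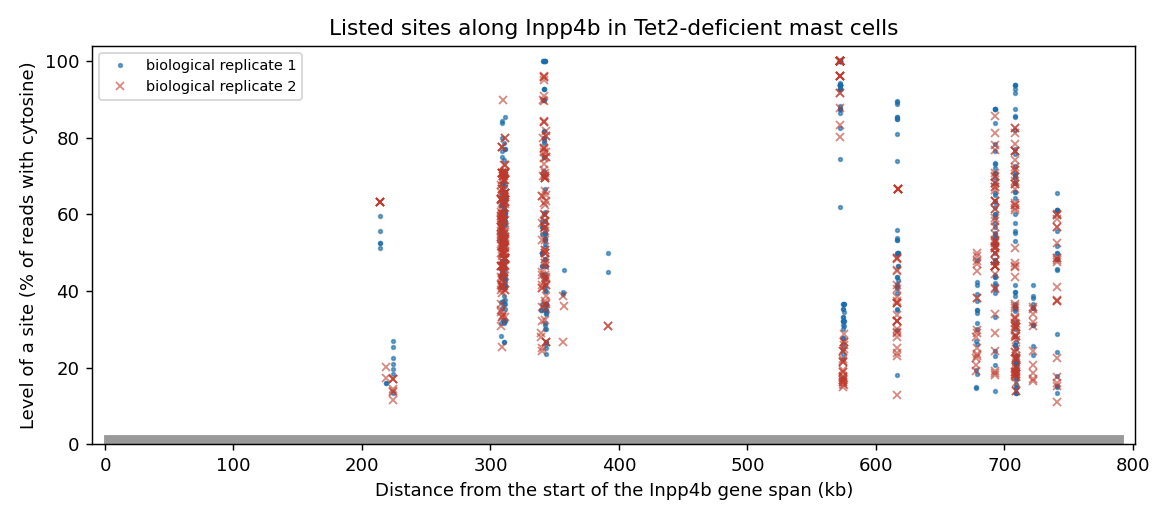
Level of each of the 508 listed sites in percent (vertical axis) against its distance from the start of the Inpp4b span in kb (horizontal axis); blue dots are biological replicate 1, red crosses biological replicate 2, and the grey bar is the gene span. No site lies in the first 214 kb, and levels within single stretches cover wide ranges.

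Among the 10 genes with the most listed sites Inpp4b was the most divided. It ranked second by number of sites, after the immunoglobulin heavy chain locus Igh with 559, and first by number of stretches. Igh had 9 stretches, the phosphodiesterase gene Pde1c 6 and the noncoding RNA 4933406I18Rik 5. The largest Inpp4b stretch held 80 sites, or 15.7% of the gene's sites. That share ran from 30.6% in Rab27b, a GTPase of granule release, to 100% in Il1rl1, the IL-33 receptor, in the other 9 genes. Inpp4b is also the second longest of the 10 genes, and its stretches took up 8.57 bases per kb of gene, between the 2.19 of Igh and the 90.1 of the cytochrome P450 gene Cyp4a12b. By mean level Inpp4b was sixth. Its neighbours in that order, the orphan receptor gene Gpr141 at 52.7% ± 3.19 and Cyp4a12b at 51.7% ± 0.904 (SD, n = 2 for both), did not differ from it beyond their spread. These genes were selected by their numbers of sites, so the ranks are descriptions with no test.

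Of the 20 stretches, 12 had 10 or more sites and held 478 of the 508 sites. Their mean levels ran from 25.7% to 94.5%. The highest was stretch 12, from 81914318 to 81914447, with 29 sites in 130 bases at 94.5% ± 3.64 (SD, n = 2). Its libraries read 92.9%, 91.0%, 97.6% and 96.6%, so that both libraries of replicate 2 lay above both of replicate 1. At 5 of its sites, between 81914360 and 81914367, every library read 100%. These are the only ones of the 508 Inpp4b sites at that level in all libraries, where the table had 71 among its 8492 sites. They lie close together and can be covered by the same reads. A pair of sites in the same stretch stood lower than the rest, at 71.0% for 81914388 and 79.0% for 81914390.

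Stretch 13 began 2516 bases after the end of stretch 12 and was the lowest of the 12. It ran from 81916963 to 81917155 with 24 sites at 25.7% ± 7.39 (SD, n = 2). Its libraries read 35.3%, 26.5%, 15.6% and 25.3%, again without overlap between the replicates, but with replicate 1 above. The gap between stretches 12 and 13 was 68.8 points, while the widest difference between libraries within either was 19.7 points.

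The 10 other large stretches lay between these levels. Stretches 4, 5, 9 and 17 formed a group from 55.0% to 58.7%. Stretch 4, the largest, ran from 81650654 to 81651717 and stood at 55.2% ± 0.502, with libraries at 49.8%, 59.8%, 60.5% and 50.6%. Stretch 5, from 81652406 to 81653952 with 74 sites, stood at 55.5% ± 2.10, with libraries at 62.5%, 45.5%, 58.9% and 55.1%. The technical replicates of biological replicate 1 differed by 10.0 points in stretch 4 and by 17 points in stretch 5, so the small SDs do not show a small error. Stretch 9 had 68 sites at 58.7% ± 3.64 and stretch 17 had 50 sites at 55.0% ± 2.28 (SD, n = 2 for each of the 4). These 4 stretches were not distinguishable from each other within the spread of their libraries.

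Below them came stretch 7 with 13 sites at 47.0% ± 4.36, stretch 14 with 25 sites at 46.3% ± 16.4, stretch 20 with 20 sites at 42.5% ± 1.19 and stretch 18 with 69 sites at 42.2% ± 2.55 (SD, n = 2 for each). Stretch 20 had the widest range of libraries of the 12, at 36.8%, 49.9%, 25.8% and 57.6%, although its SD was small. Its technical replicates differed by 13.1 and 31.8 points. Stretch 16 with 16 sites stood at 32.2% ± 1.82 and stretch 19 with 10 sites at 30.2% ± 5.11, so these were the nearest to stretch 13 (SD, n = 2 for both).

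**Figure D2:**
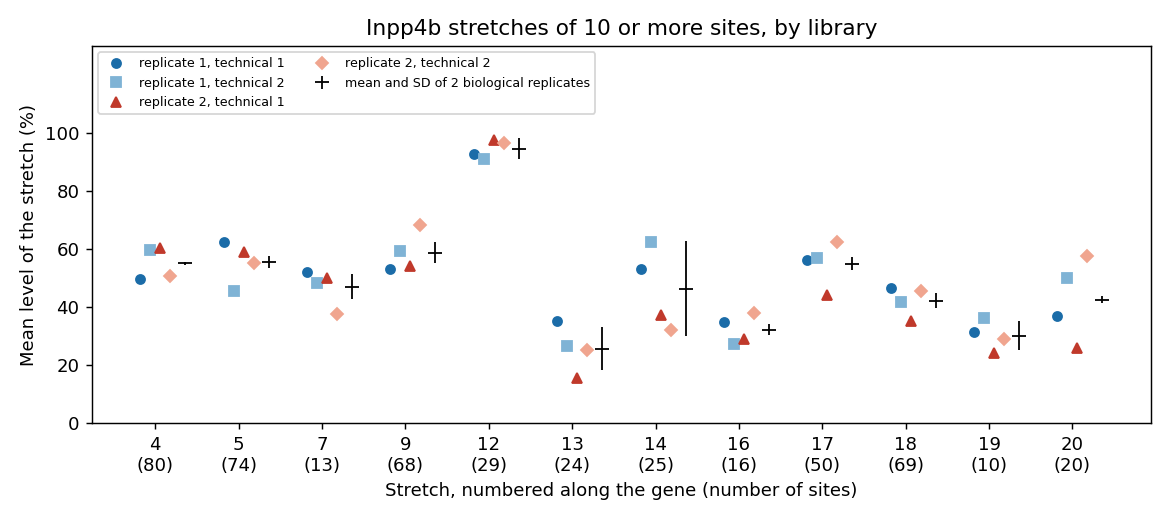
Mean level in percent (vertical axis) of the 12 Inpp4b stretches of 10 or more sites, numbered along the gene with their number of sites in parentheses (horizontal axis); coloured symbols are the 4 libraries, and the black tick and bar are the mean and SD of 2 biological replicates. Stretch 12 stands at 94.5% and stretch 13 next to it at 25.7%, and the replicates are farthest apart in stretch 14.

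The remaining 8 stretches had 30 sites in all. Their levels ran from 17.4% in stretch 2, with 2 sites, to 88.3% in stretch 8, with 3 sites. The libraries of these small stretches lay far apart, with a median difference of 20.7 points between the highest and the lowest library. The widest was in stretch 15, with 6 sites from 81959172 to 81959202, where the libraries read 51.2%, 44.0%, 33.3% and 100%. In stretch 1, with 5 sites, they read 32.0%, 76.7%, 66.7% and 60%. A level of a small stretch in a single library is thus of little precision.

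Biological replicates were compared next, as the only groups in the table. Each of these groups is a single biological replicate, and its technical replicates are not separate biological units, so no test was made. The exact two-sided permutation test over 4 libraries could not reach the usual threshold either. Counts are therefore given beside those of the whole table. The libraries of the 2 biological replicates did not overlap at 129 of the 508 sites (25.4%), against 30.4% of all sites. Replicate 1 was the higher at 81 of these (15.9% of the Inpp4b sites, against 14.7% of all sites) and replicate 2 at 48 (9.45%, against 15.7%). The share over both directions was below that of the whole table, and no test of this difference was made. With the 2 numbers in the column names exchanged, so that technical and biological replicates change places, it was above, with 138 sites (27.2%) against 26.3% of all sites. Among the 12 large stretches, 4 had replicates that did not overlap (33.3%, against 29.5% of the 146 large stretches of the table). These were stretches 12, 13, 14 and 19, and replicate 1 was the higher in the last 3. The mean gap between technical replicates exceeded the gap between biological replicates in 8 of the 12 large stretches. The first is a gap between single libraries and the second a gap between means of 2 libraries, which vary less. The share over the large stretches of the table was not computed, so nothing is read from this count.

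Stretch 14, from 81958358 to 81958580, had the widest gap between biological replicates, 23.2 points, where the median of the 12 was 4.38 points. Its libraries read 53.3%, 62.6%, 37.2% and 32.2%, and the replicates did not overlap. The gap was not even along its 223 bases. Over the first 10 sites the libraries read 33.2%, 47.7%, 31.6% and 29.6%, and over the last 10 they read 79.3%, 84.0%, 44.6% and 36.1%. The end of the stretch thus held most of the difference: its level was higher than at the start in 4 of 4 libraries, by 46.1 and 36.4 points in replicate 1 and by 13 and 6.49 points in replicate 2. Of the 25 sites, 18 had non-overlapping replicates, replicate 1 being higher in each, where 14.7% of all sites had that direction. The stretch is described for its gap, so nothing is read from this count. With the column numbers exchanged the stretch stands at 45.2% and 47.4%, and the widest gap is in stretch 20 with 22.4 points.

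One site of stretch 14 stood apart from its neighbours in every library. The cytosine at 81958486 had levels of 18.8%, 17.2%, 12.1% and 13.3%, a mean of 15.4% ± 3.73 (SD, n = 2). The site before it, 11 bases away, stood at 44.9%, and the site after it, 5 bases away, at 44.0%. It is the only Inpp4b site that lay below both neighbours within 20 bases in all 4 libraries and by 10 points or more in the mean (1 of 508, against 0.447% of all sites).

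Levels differed between the parts of several stretches. In stretch 18, from 82050581 to 82051138, the first 10 sites averaged 26.2% ± 4.54 (SD, n = 2), while the 44th site, at 82050790, stood at 85.2%. The sites between them did not form an even slope, and the one at 82050743 stood at 45.8%. After 171 bases without a listed site the next one stood at 24.1%. The 25 sites beyond the gap averaged 21.0% ± 2.04 and the 44 before it 54.3% ± 5.16 (SD, n = 2 for both). The part before the gap was higher in 4 of 4 libraries, with 60.7%, 55.2%, 44.9% and 56.3% against 21.5%, 17.7%, 18.1% and 26.8%.

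Stretch 9, from 81684095 to 81685798, had the largest difference between its ends. Its first 10 sites stood at 82.0%, 90.4%, 85.0% and 87.5%, and its last 10 at 34.3%, 26.2%, 33.9% and 38.4%. The difference of -53.0 points had the same sign in 4 of 4 libraries and lay between -64.2 and -47.7 points. In stretch 17, from 82034839 to 82035121, levels were highest in the middle, at 84.7% for the site at 82034979, and the last 10 sites averaged 35.7% ± 3.18 against 52.3% ± 7.46 for the first 10 (SD, n = 2 for both). That difference of -16.6 points also had one sign in all 4 libraries. By their last 10 sites against their first 10, stretches 4 and 5 were higher at their ends, by 13.1 and 13.4 points, each in 4 of 4 libraries. Split at its widest inner gap, stretch 5 went the other way, with 57.5% before and 51.1% after. Its libraries read 62.7%, 49.1%, 59.7% and 58.7% before that gap and 62.0%, 38.0%, 57.2% and 47.4% after it. Stretch 4 split in this way stood at 52.5% and 67.7%, but technical replicate 2 of biological replicate 2 stayed level, at 50.6% and 50.5%. Stretch 13 showed no common direction, with 2 libraries each way and a difference of 0.509 points.

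**Figure D3:**
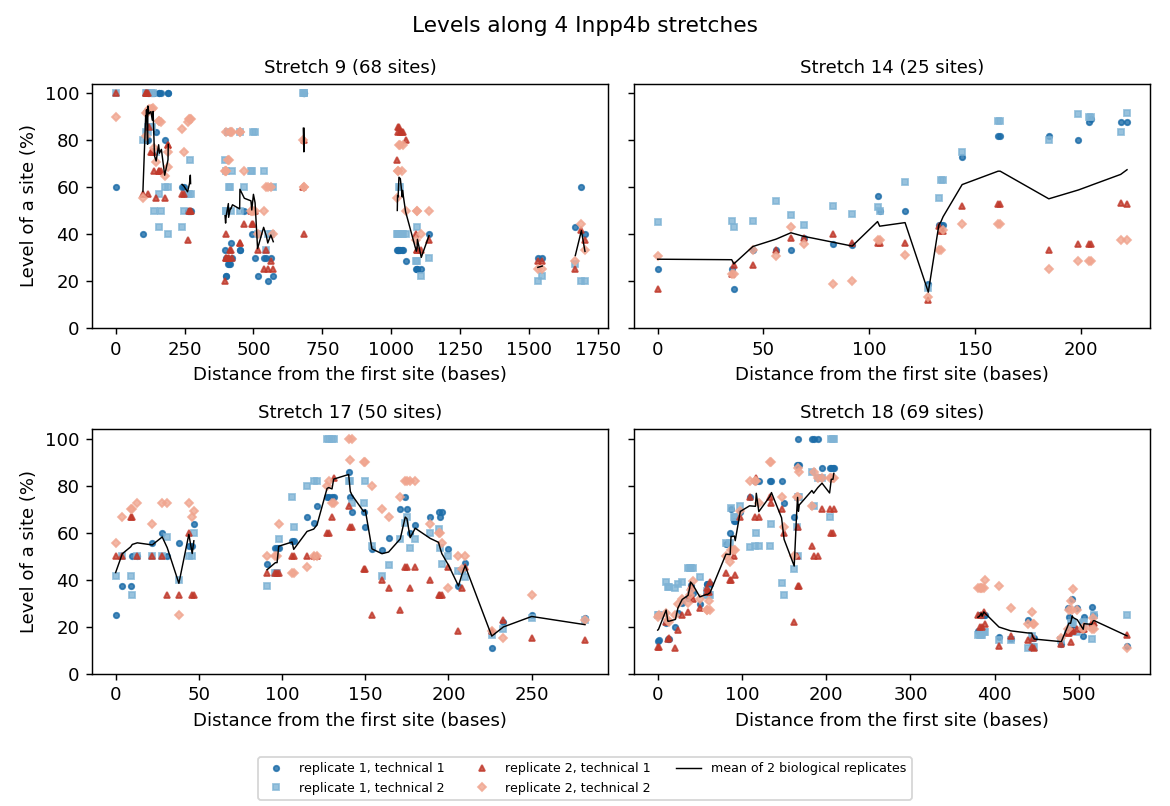
Level of each site in percent (vertical axis) against its distance from the first site of the stretch in bases (horizontal axis) in stretches 9, 14, 17 and 18; symbols are the 4 libraries and the black line is the mean of 2 biological replicates, broken where sites are over 40 bases apart. Stretch 9 is higher at its start than at its end, the replicates of stretch 14 lie apart at its end, and stretch 18 reaches 85.2% before a gap of 171 bases and averages 21.0% after it.

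Sites close together had nearly the same level. The 119 pairs of directly adjacent cytosines differed by 3.34 points on average, pairs 2 to 10 bases apart by 4.99 points, pairs 11 to 50 bases apart by 7.0 points and the 20 pairs over 50 bases apart by 20.3 points. Over the whole table the same 4 averages were 2.66, 4.63, 7.60 and 12.9 points. In 55.7% of the comparisons of adjacent cytosines within a library the levels were identical, against 3.75% for pairs over 50 bases apart. Neighbouring sites can be covered by the same reads, so they are not separate measurements. A listed neighbour within 10 bases was present for 464 of the 508 sites (91.3%), against 93.8% of the other sites.

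The spacing of the sites was shared with other genes. A run of 8 or more consecutive spacings of a stretch was searched in all other stretches of the table, in the same and in mirrored order, that is, read from the other end. Of the 12 large Inpp4b stretches, 6 shared such a run (50%), namely stretches 4, 5, 9, 12, 17 and 18. These hold 370 of the 508 sites. The share over the 146 large stretches of the table was 58.9%, so the share in Inpp4b was near that of the table. There were 19 pairs with 16 other stretches, 10 of them in mirrored order, and none between 2 stretches of Inpp4b itself. In 6 of the 19 pairs the partner lay outside genes. The partners of the other pairs lay in 9 genes, of which 7 are among the 10 genes with the most sites. Those 10 genes also offer the most sites in which a run can be found, so nothing is read from this count. With runs of 12 spacings required, 2 of the 12 stretches remained, 12 and 17, against 33.6% of the large stretches of the table.

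The longest run belonged to stretch 12. From 81914355 to 81914405 its sites followed each other at 2, 3, 1, 1, 3, 2, 12, 1, 2, 6, 2, 6, 1, 5, 1 and 2 bases. The same 16 spacings occurred in mirrored order in a stretch outside annotated genes on chromosome 13, from 4260705 to 4261546. With the runs laid on each other, 20 sites coincided, 69.0% of the Inpp4b sites and 87.0% of the partner's sites in the overlap. At these 20 sites Inpp4b read 93.3%, 92.6%, 97.7% and 97.5%, and the partner 64.6%, 82.6%, 88.0% and 74.5%. Inpp4b was higher in 4 of 4 libraries. At the 17 sites of the run alone the means were 95.1% ± 2.96 and 86.1% ± 5.80 (SD, n = 2 for both), with Inpp4b higher in 3 of 4 libraries.

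Part of that run, 12 spacings, also occurred in mirrored order in Rab27b. There 14 sites coincided, which were all of the partner's sites in the overlap and 70.0% of those of Inpp4b. Both levels were high, at 94.2% ± 3.36 in Inpp4b and 96.9% ± 2.33 in Rab27b (SD, n = 2 for both). The difference was below the larger of these SDs, and Inpp4b was higher in 2 of 4 libraries. At the 13 sites of the run alone the means were 94.0% ± 3.23 and 97.9% ± 2.91 (SD, n = 2 for both). That difference of -3.92 points was larger than both SDs, again with Inpp4b higher in 2 of 4 libraries. The 2 lower sites of stretch 12, at 81914388 and 81914390, stood at 71.0% and 79.0% in Inpp4b but at 98.3% for both in Rab27b.

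Stretch 17 shared runs with 4 partners. The longest, 13 spacings from 82034945 to 82034989, recurred in Gm34048 on chromosome 3, and 27 sites coincided, at 64.0% ± 4.85 in Inpp4b and 45.5% ± 5.53 in Gm34048. With Mctp1, which encodes a calcium-binding membrane protein, 16 of the 17 Inpp4b sites in the overlap coincided, at 46.1% ± 3.93 in Inpp4b and 71.6% ± 0.447 in Mctp1. With Il1rl1, 22 sites coincided at 63.8% ± 1.89 and 27.8% ± 8.87, the pair in which Inpp4b stood highest above its partner (SD, n = 2 for each). Inpp4b was lower than Mctp1 and higher than Il1rl1 in 4 of 4 libraries. The fourth partner, outside genes on chromosome 6, had 28 coincident sites at 47.9% against 55.3% in Inpp4b. Gm34048 and the chromosome 6 partner were below Inpp4b in 3 of 4 libraries. In technical replicate 1 of biological replicate 2 they were above it, Gm34048 with 53.2% against 49.1% and the chromosome 6 partner with 68.3% against 41%.

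Stretch 18 shared runs with 5 partners. All 22 Inpp4b sites in its overlap with Pde1c coincided with a Pde1c site, 91.7% of the Pde1c sites there, in mirrored order around a run of 8 spacings. The libraries read 36%, 43.1%, 29.4% and 33.8% in Inpp4b and 91.2%, 54.2%, 59.8% and 72.4% in Pde1c. Pde1c was higher in 4 of 4 libraries, by 33.9 points in the mean. With Fut8, the core fucosyltransferase gene, 29 sites coincided at 39.2% in Inpp4b and 57.7% in Fut8, with Fut8 higher in 4 of 4 libraries. At the 10 sites of the shared run this was not seen, with 63.2% ± 3.45 in Inpp4b and 61.5% ± 6.94 in Fut8 (SD, n = 2 for both).

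The other pairs were stretch 4 with Igh and with a stretch outside genes on chromosome 6, stretch 5 with Il1rl1, stretch 9 with 5 partners in Igh, Gpr141, Cyp4a12b, Pde1c and outside genes, and stretch 18 with Gpr141 and 2 stretches outside genes. Over all 19 pairs, Inpp4b had the higher mean at coincident sites in 8 and the partner in 11, with differences from -33.9 to 36.1 points. Inpp4b was higher in all 4 libraries in 5 pairs and lower in all 4 in 5 pairs. At the sites of the runs alone Inpp4b was higher in 9 pairs and the partner in 10, in all 4 libraries in 5 pairs each way, with differences from -40.3 to 44.9 points. The direction turned in 1 pair, that with Fut8. The sequences of these stretches were not analysed here. Reads of near-identical sequences can be counted at either place, and how such reads were placed is not given in the sources used here, so the levels of these stretches are uncertain. The part of read placement in them was not tested.

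**Figure D4:**
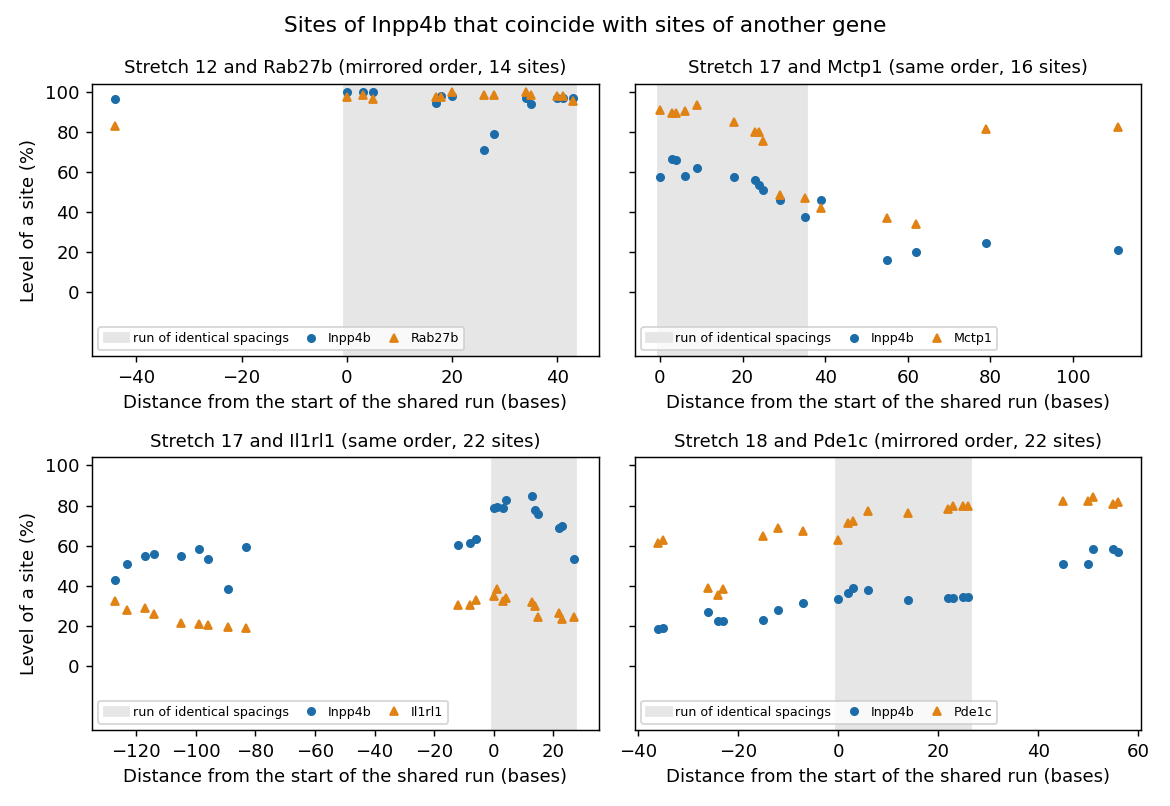
Level in percent (vertical axis) of coincident sites of an Inpp4b stretch (blue circles) and a stretch of another gene (orange triangles) against the distance from the start of the shared run of spacings in bases (horizontal axis; grey band, the run); values are means of 2 biological replicates. Stretch 12 and Rab27b are both high, Pde1c lies above Inpp4b, Mctp1 lies above it in the mean though not at every site, and Il1rl1 lies below it.

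Other genes of the phosphoinositide pathway were looked up in the table. Of 76 phosphatases, kinases and effectors of this pathway, all matched to RefSeq, 2 had listed sites, Inpp4b, which was chosen for its sites, and Gab2. Listed sites were rare in the annotation as a whole, with 96 of its 21900 protein-coding genes (0.438%) holding any. The list of 76 genes was written with earlier results of these data known, so no enrichment of the pathway is read from these counts. Gab2 encodes an adaptor that recruits phosphoinositide 3-kinase to activated receptors. It had 93 sites in 5 stretches on chromosome 7, at 52.9% ± 2.17 (SD, n = 2), and its libraries stood at 59.3%, 43.5%, 56.0% and 52.9%. Gab2 did not differ from Inpp4b beyond the spread of its libraries. The other 74 genes, among them the related phosphatases Inpp4a and Inpp5d, had no listed site. Without coverage this does not show that they carry no methylation.

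Around Inpp4b the table was sparse. The nearest listed site before the gene, at 79757132 in Anapc10, lay 1585134 bases away and read 42.9%, 40%, 28.6% and 30%. The nearest after it, at 122466976 in Rnf166, lay 40332664 bases away and read 10.5%, 15.5%, 20.6% and 11%. The first site inside the span read 27.3%, 77.8%, 66.7% and 60%, and the last 28.6%, 71.4%, 25% and 50%. The flanking protein-coding genes, Usp38 before and the cytokine gene Il15 after Inpp4b, had no listed site. The 3 genes that overlap Inpp4b, Gm51582 at its start and the pseudogenes Gm17169 and Gm17072, had none either, so no Inpp4b site was shared with another annotated gene.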

How the data were processed

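The deposited table gives, per the file headers, a methylation rate as a fraction for each site and library, which was multiplied to percent. Poly(A) RNA was treated with DNase, converted with bisulfite and sequenced in stranded libraries, per the labels' protocols. The submitters' processing notes name mm10 and GRCm38. The aligner, site caller, coverage minimum and the rule for group-specific sites are named in no source used here. Every listed level is 10% or more, so lower sites are not seen. Column names were read as genotype, biological and then technical replicate.

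Gene spans and the promoter window are from RefSeq GRCm38.p6. Stretches, neighbours and shared spacings (at least 8 in a row with 3 or more different values) were computed with Python 3.11.15, numpy 2.4.6 and pandas 2.3.3, and the functions were tested on simulated data. No test was made, since 1 genotype was analysed. The members and lists were chosen with earlier results of these data known, and a further gene of the pathway was left out of the list and is not reported here. By the naming rule the text gives Inpp4b, the 10 genes with most sites, list genes with sites and genes next to Inpp4b; the genes Gm34048, Mctp1, Anapc10 and Rnf166 were named after their values were seen. The search for shared spacings and the levels within runs were added after the data were seen.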

Additional observations from a re-analysis of the deposited data

How the results depend on the processing

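The mean level of 51.7% became 57.6% with at least 20% in every library, 39.1% without sites that have a neighbour within 10 bases, 46.7% with each stretch counted once and 50.7% as a median; it was 51.1% to 52.3% with a biological replicate left out and kept its value, with an SD of 1.72, when the column numbers were exchanged. The 508 sites became 137 with positions within 10 bases merged, and the 20 stretches became 33 when joined up to 100 bases. The share of sites with a neighbour was 78.0% within 5 and 96.9% within 20 bases. The widest gap between replicates was 22.4 points with the column numbers exchanged and 19.5 as a median over sites. The median difference between the highest and lowest library of a large stretch, 14.8 points, was 18.4 when joined up to 100 bases and 16.1 with small stretches included. With runs of 12 spacings, 2 stretches shared a pattern. Settings for small stretches and for runs were chosen after seeing the data. The cause of these changes was not tested. No paired analysis was possible because the columns come from Tet2-deficient libraries only. With no read numbers, limits set by depth are not known.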
